A study of Homo sapiens with 3 samples.

Results

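Genes of xenobiotic metabolism were examined for acetylation of histone H2A at lysine 130 in a map made by chromatin immunoprecipitation and sequencing. Members were chosen by gene symbol: protein-coding genes of the cytochrome P450 families CYP1 to CYP4, the UGT1A, UGT2A and UGT2B glucuronosyltransferases, the alpha, mu, pi, theta and omega glutathione S-transferases, the SULT1 and SULT2 sulfotransferases, the AKR1B and AKR1C aldo-keto reductases, and NAT1, NAT2, NQO1, NQO2, EPHX1 and EPHX2. The rule found 95 genes, of which 94 lie on a chromosome of the hg38 primary assembly, out of 19821 protein-coding genes on chromosomes 1 to 22 and X. The remaining member, GSTT1, is listed by RefSeq on an alternate sequence of chromosome 22 and could not be compared with the peaks. Of all peaks, 32 of 23975 in the smoke list and 21 of 27010 in the air list lay within 10 kb of a member.

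The cells were UMUC3, an established human bladder cancer line, and the mark was pulled down with an antibody against the acetylated residue. The smoke library came from cells kept in 10% cigarette smoke media for 3 days, and the air library from air-exposed cells of the same line. An input library carries no treatment label and was not analysed here. There was 1 library of each kind, so differences below carry no replicate check, and none has a p-value. Intervals are 95% intervals and cover counting error only. Read depth is not known from peak lists.

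Xenobiotic enzymes work in stages. Cytochromes P450, aldo-keto reductases, quinone reductases and epoxide hydrolases add or expose a reactive group on a foreign molecule, and transferases then attach glucuronate, glutathione, sulfate or acetate so that it can be excreted. The aryl hydrocarbon receptor AHR, which binds polycyclic aromatic hydrocarbons of tobacco smoke, induces CYP1 enzymes, and NRF2, encoded by NFE2L2, induces many of the conjugating and reducing enzymes. Aromatic amines of smoke are textbook bladder carcinogens, and N-acetyltransferases and glutathione S-transferases are the best-known modifiers of that risk.

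Peaks of either library were present at 40 of the 94 placed members (42.6%, Wilson interval 33.0 to 52.6), against 46.0% of all protein-coding genes. A smoke peak lay within 10 kb of 25 members (26.6%, Wilson interval 18.7 to 36.3), against 31.3% of all protein-coding genes. An air peak also lay near 25 members (26.6%), against 33.1% of all protein-coding genes. Both libraries had a peak at 10 members (10.6%, 5.88 to 18.5), where the share of all protein-coding genes was 18.3%. Smoke alone had peaks at 15 members and air alone at 15 (16.0% each, 9.92 to 24.7), beside 13.0% and 14.8% of all protein-coding genes. In each of these cases the interval at members included the share of all genes. The UGT1A genes overlap and share peaks, so members are not independent of each other. No peak of either library lay near the other 54 members.

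The number of peaks was less even than the number of genes. The 32 smoke peaks gave 8.32 per Mb of gene span plus 10 kb flanks (exact Poisson interval 5.69 to 11.7), against 7.92 per Mb at all protein-coding genes. The 21 air peaks gave 5.46 per Mb (3.38 to 8.34), against 8.97 per Mb. Smoke peaks made up 60.4% of the 53 peaks at members (46.9 to 72.4) and 46.9% of the peaks at all protein-coding genes. A single cluster, CYP2C, held 13 of the 32 smoke peaks and 2 of the 21 air peaks. Without it the other 90 members had 19 smoke and 19 air peaks, 5.37 per Mb in each library (3.23 to 8.39), and the smoke share was 50% (34.8 to 65.2).

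**Figure D1:**
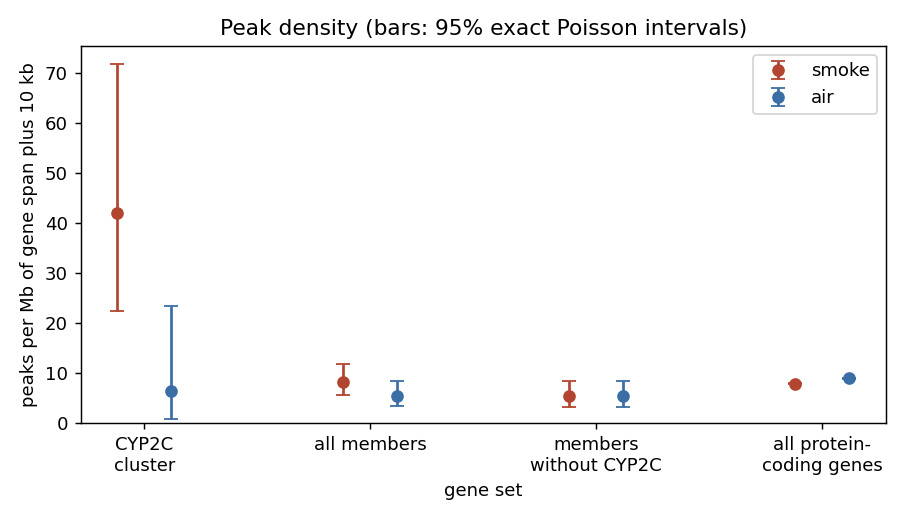
Peaks per Mb of gene span plus 10 kb on each side (vertical axis) in the CYP2C cluster, all 94 members, the 90 members outside CYP2C and all protein-coding genes, with smoke as the left and air as the right point of each pair and exact Poisson intervals as bars. Smoke stands at 42.0 and air at 6.46 per Mb in CYP2C, and both stand at 5.37 per Mb in the members outside it.

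Genes of 50 kb or longer had a peak most often, among members as among all genes. Of members under 20 kb, 8 of 44 had a smoke peak and 10 of 44 an air peak, 18.2% and 22.7%, against 12.3% and 13.4% of all protein-coding genes of that length. From 20 to 50 kb the shares were 23.3% and 20% of 30 members, against 26.4% and 29.7% of all such genes. At 50 kb or longer they were 50% and 45% of 20 members, against 61.8% and 63.4% of all such genes.

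Cytochromes P450 carried most of the peaks, and their windows made up 1.61 of the 3.85 Mb of member windows. Of 35 placed CYP genes, 3 had peaks of both libraries, 5 of smoke alone, 7 of air alone and 20 of neither. Over all protein-coding genes these shares were 18.3%, 13.0%, 14.8% and 54.0%. Together the CYP genes had 18 smoke and 11 air peaks, of which CYP2C held 13 and 2. The CYP2 family, with 16 genes, had 16 smoke and 4 air peaks. The CYP4 family, with 12 genes, had 1 smoke and 5 air peaks. CYP1 had 1 of each over its 3 genes, and CYP3 had 1 air peak and no smoke peak over its 4 genes.

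**Figure D2:**
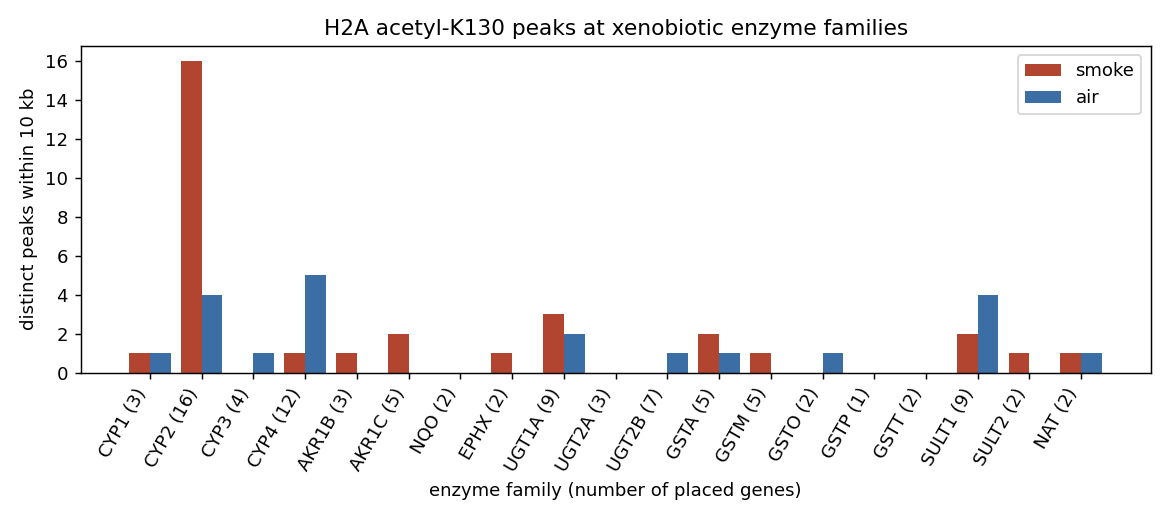
Distinct peaks within 10 kb of the genes of each enzyme family (vertical axis, a peak near several genes of a family counted once), smoke as the left and air as the right bar, with the number of placed genes in brackets. The CYP2 family has 16 smoke and 4 air peaks, and every other family has at most 5 of either.

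The CYP2C cluster on chromosome 10 was the member cluster where the libraries differed most by count. It encodes drug-oxidising enzymes of liver and gut, among them CYP2C19, which activates clopidogrel, and CYP2C8, which oxidises paclitaxel. CYP2C18 (94683729 to 94736190) had 3 smoke peaks and no air peak. CYP2C19 (94762681 to 94855547) had 5 smoke peaks and no air peak. CYP2C8 (95036772 to 95069497) had no smoke peak and 1 air peak. CYP2C18 and CYP2C19 thus had smoke peaks alone, and CYP2C8 an air peak alone.

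Fold values are the authors' enrichment of each peak over its background and describe a peak within its own list. At CYP2C18 the smoke folds were 3.76, 3.76 and 2.83. At CYP2C19 they were 4.30, 4.30, 3.76 and 4.84 inside the span and 3.66 at a peak 2.83 kb downstream of it. The air peak inside CYP2C8, at chr10:95046071-95046342, was listed with fold 3.13 and −log10 q 0.939.

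The stretches on both sides of the cluster had smaller differences. Over the whole 405.8 kb from 10 kb before CYP2C18 to 10 kb after CYP2C8, including the spaces between genes, there were 15 smoke and 5 air peaks. The stretch of equal length to the left had 7 smoke and 5 air peaks. The stretch to the right had 3 smoke and 2 air peaks. When chromosomes 1 to 22 and X were cut into tiles of that length, 6821 tiles held a peak and 4 of them (0.0586%) had an excess of at least 10 smoke over air peaks. An excess of at least 10 air over smoke peaks was found in 19 tiles (0.279%). Of 2897 protein-coding genes 50 to 100 kb long, 13 had at least 5 smoke peaks (0.449%), CYP2C19 among them, and 12 had at least 5 air peaks (0.414%). The cluster was singled out after its values were seen, and the tiles are a description of these libraries.

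Stricter thresholds lowered the count in both libraries. Among peaks with a −log10 q of 1.3 or more the cluster had 7 in smoke and none in air, and among those with a fold of 5 or more it had 1 in smoke and none in air. Within 50 kb of the genes there were 17 smoke and 6 air peaks.

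Other CYP2 genes had few peaks. CYP2A6, the main nicotine oxidase of human liver, had 1 peak of each library downstream of its span on chromosome 19, a smoke peak 9.28 kb away (fold 5.37, −log10 q 2.65) and an air peak 6.01 kb away (fold 4.49, −log10 q 2.13). The 2 peaks lay 3.05 kb apart. CYP2B6, a drug oxidase in the same cluster, had a smoke peak inside its span (fold 3.76), and CYP2J2, which makes epoxides of arachidonate, had another on chromosome 1 (fold 3.76). CYP2R1, which hydroxylates vitamin D, had an air peak inside its span on chromosome 11 (fold 4.06). No peak lay near CYP2A7, CYP2A13, CYP2F1, CYP2S1, CYP2D6, CYP2E1, CYP2U1 or CYP2W1. CYP2A13 activates a tobacco-specific nitrosamine in the airway, and CYP2E1 oxidises ethanol and small nitrosamines.

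The CYP1 family oxidises polycyclic hydrocarbons and is the textbook readout of AHR. CYP1B1 had 1 smoke peak 2.51 kb from its span, at chr2:38078663-38079105 (fold 3.76, −log10 q 1.24), and air had none nearer than 145 kb. CYP1A2, which oxidises aromatic amines, had 1 air peak 7.15 kb upstream (fold 3.65), and the nearest smoke peak was 53.5 kb away. CYP1A1 had no peak within 10 kb. Around CYP1A1 smoke had none nearer than 24.2 kb and air none nearer than 16.0 kb. Its promoter is shown because it belongs to the best-known AHR target. It covers chr15:74725479-74725778 on the minus strand (RefSeq, GRCh38.p14), and capitals mark the AHR core motif GCGTG on either strand.

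CYP1A1: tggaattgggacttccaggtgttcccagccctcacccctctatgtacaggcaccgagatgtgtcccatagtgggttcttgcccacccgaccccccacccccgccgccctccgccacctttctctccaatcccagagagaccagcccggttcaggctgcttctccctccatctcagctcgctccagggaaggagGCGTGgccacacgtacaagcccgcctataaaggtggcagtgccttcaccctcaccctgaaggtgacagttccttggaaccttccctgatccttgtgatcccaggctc

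CYP3A4, the most abundant P450 of adult liver, had 1 air peak inside its span on chromosome 7 (fold 4.69, −log10 q 2.13). CYP3A5, CYP3A7 and CYP3A43 had none of either library. In the CYP4 family, whose members hydroxylate the ends of fatty acids, CYP4F2 had 1 smoke peak inside its span (fold 3.34) and 2 air peaks 7.16 and 9.91 kb downstream (fold 3.65 each). CYP4F12 had 1 air peak 4.11 kb from its span (fold 4.06), CYP4A11 had 1 at 6.96 kb (fold 2.90) and CYP4A22 had 1 at 5.60 kb (fold 3.13). All the CYP4 air peaks therefore lay outside the genes they were assigned to. CYP4B1, CYP4X1, CYP4Z1, CYP4F3, CYP4F8, CYP4F11, CYP4F22 and CYP4V2 had no peak.

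Of 8 aldo-keto reductase genes, 3 had 1 smoke peak each and none had an air peak, beside 31.3% of all protein-coding genes with a smoke peak and 33.1% with an air peak. The air density of these genes was 0 per Mb, with an interval up to 9.86 that includes the 8.97 per Mb of all protein-coding genes. AKR1C2, a reductase of ketosteroids, had its smoke peak at chr10:5017094-5017360 (fold 5.37, −log10 q 2.65). That place is inside the 5′ end of the RefSeq span of this minus-strand gene, but its summit lies 13.3 kb from the start site in the RefSeq promoter table. AKR1C4, a hepatic form, had one inside its span (fold 3.22), and AKR1B10, a reductase of retinal and other aldehydes, had one 7.77 kb from its span (fold 3.64). EPHX2, the soluble epoxide hydrolase, had a smoke peak inside its span on chromosome 8 (fold 4.66). AKR1C1, AKR1C3, AKR1C8, AKR1B1, AKR1B15, EPHX1, NQO1 and NQO2 had no peak. For NQO1, a quinone reductase and standard NRF2 target, smoke had no peak nearer than 148 kb and air none nearer than 41.3 kb.

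The UGT1A locus on chromosome 2 makes 9 enzymes from alternative first exons joined to shared last exons, so its gene spans overlap and share their peaks. It had 3 smoke and 2 air peaks in all. The smoke peaks lay 62.2, 68.9 and 78.3 kb into the locus, counted from the start of UGT1A8, and their folds were 2.69, 3.22 and 3.22. They stood between the start of UGT1A9 and that of UGT1A5, with the starts of UGT1A7 and UGT1A6 between them. UGT1A6, which glucuronidates small phenols and is induced through AHR, had 2 of them within 10 kb. The air peaks lay 39.4 kb into the locus (fold 3.65) and 7.50 kb past its shared end (fold 3.48). That last peak put all 9 UGT1A genes on the air side of the gene count, and 5 of them also on the smoke side. Counted by gene, UGT1A gives 5 of the 10 members with peaks of both libraries, from 5 peaks in all. The UGT1A7 promoter is shown because a smoke peak ends 1727 bp before it. It covers chr2:233681651-233681950 on the plus strand (RefSeq, GRCh38.p14), with the AHR core motif in capitals.

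UGT1A7: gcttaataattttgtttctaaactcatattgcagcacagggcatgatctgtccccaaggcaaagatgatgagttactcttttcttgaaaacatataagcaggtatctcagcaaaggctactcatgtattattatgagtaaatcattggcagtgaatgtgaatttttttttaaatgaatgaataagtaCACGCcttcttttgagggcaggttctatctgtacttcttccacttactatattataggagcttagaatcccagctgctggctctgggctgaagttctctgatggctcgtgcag

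**Figure D3:**
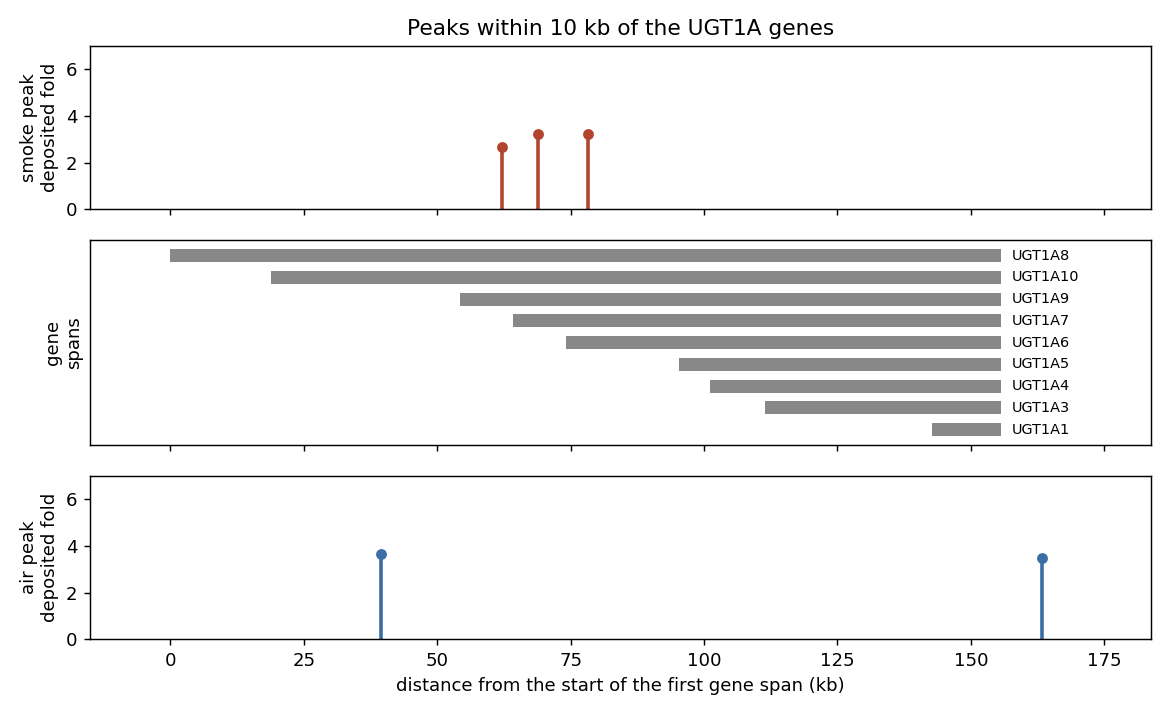
Peaks within 10 kb of the UGT1A genes, drawn at the summit's distance from the start of UGT1A8 in kb (horizontal axis), with the deposited fold as height, smoke above and air below the gene spans. The 3 smoke peaks lie between 62.2 and 78.3 kb, and the 2 air peaks at 39.4 kb and beyond the shared end.

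The UGT2 genes on chromosome 4 glucuronidate steroids, bile acids and drugs, and 1 of the 10 had a peak. Of all protein-coding genes, 46.0% had a peak of either library. UGT2B7, which conjugates morphine, had 1 air peak inside its span (fold 4.64, −log10 q 2.02). The other 9 UGT2 genes, UGT2A1, UGT2A2, UGT2A3, UGT2B4, UGT2B10, UGT2B11, UGT2B15, UGT2B17 and UGT2B28, had none of either library. With SULT1B1 and SULT1E1, which lie beside them, they form a cluster of 12 genes with 1 smoke and 1 air peak over 0.613 Mb, or 1.63 per Mb in each library (0.0413 to 9.09). That interval includes the densities at all protein-coding genes, 7.92 per Mb in smoke and 8.97 per Mb in air.

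Sulfotransferases had 3 smoke and 4 air peaks over 11 placed genes, and no gene had both, beside 18.3% of all protein-coding genes. The densities were 6.81 smoke and 9.08 air peaks per Mb, against 7.92 and 8.97 per Mb at all protein-coding genes. Both intervals (1.40 to 19.9 and 2.47 to 23.2) included those values. SULT1E1, which sulfates oestrogens, had a smoke peak at chr4:69860476-69860781, 331 bp upstream of its span (fold 2.69, −log10 q 0.521). SULT2B1, which sulfates cholesterol and pregnenolone, had a smoke peak inside its span at chr19:48552916-48553176, with the summit 860 bp past the start (fold 3.46). SULT1C3 had a smoke peak 9.04 kb upstream (fold 3.03). SULT1C2 had 3 air peaks, with folds of 2.90 and 6.25 inside its span and 3.32 at 2.78 kb downstream. The fold of 6.25, with a −log10 q of 3.82, was the highest of the air peaks at members. SULT1A1, the main phenol sulfotransferase, had 1 air peak 7.32 kb from its span (fold 3.48). SULT1A2, SULT1A3, SULT1A4, SULT1B1, SULT1C4 and SULT2A1 had none.

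The promoters of SULT1E1 and SULT2B1 are shown because no other RefSeq promoter window of a member, besides that of UGT1A7, had a peak within 2 kb. The SULT1E1 window, chr4:69860096-69860395 on the minus strand, ended 81 bp from the smoke peak, and it holds no match to either motif searched. The SULT2B1 window, chr19:48551922-48552221 on the plus strand, ended 695 bp from the smoke peak, and capitals mark its 2 AHR core motifs.

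SULT1E1: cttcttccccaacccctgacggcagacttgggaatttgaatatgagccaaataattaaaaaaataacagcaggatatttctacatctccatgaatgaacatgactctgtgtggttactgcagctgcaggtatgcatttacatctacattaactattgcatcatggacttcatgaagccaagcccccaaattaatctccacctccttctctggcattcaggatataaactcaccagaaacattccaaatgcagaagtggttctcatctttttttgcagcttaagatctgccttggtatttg

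SULT2B1: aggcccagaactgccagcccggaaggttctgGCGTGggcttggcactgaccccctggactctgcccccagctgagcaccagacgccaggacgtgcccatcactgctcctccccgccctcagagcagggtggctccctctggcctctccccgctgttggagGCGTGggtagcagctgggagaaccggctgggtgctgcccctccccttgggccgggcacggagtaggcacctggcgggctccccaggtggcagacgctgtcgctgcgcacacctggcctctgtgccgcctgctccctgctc

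Glutathione S-transferases, which couple electrophiles to glutathione, had 3 smoke and 2 air peaks over 15 placed genes. The densities were 6.99 smoke and 4.66 air peaks per Mb, against 7.92 and 8.97 per Mb at all protein-coding genes. Both intervals (1.44 to 20.4 and 0.564 to 16.8) included those values. A smoke peak inside GSTM2 (fold 3.99) also lay within 10 kb of GSTM4. GSTA3 had a smoke peak (fold 3.76). GSTA4, which clears lipid peroxidation aldehydes, had a smoke peak (fold 2.69) and an air peak (fold 2.88) inside its span, 11.2 kb apart. GSTO1, an omega-class enzyme that reduces dehydroascorbate, had an air peak 9.62 kb upstream (fold 5.47, −log10 q 3.10). GSTM1, a gene often deleted in people, had none, with smoke no nearer than 14.5 kb and air no nearer than 84.6 kb. GSTM3, GSTM5, GSTA1, GSTA2, GSTA5, GSTO2, GSTP1, GSTT2B and GSTT4 also had none. The GSTP1 promoter is shown because it carries the antioxidant element searched for, TGACNNNGC, which is in capitals. Its nearest peaks were far, 248 kb from the gene in smoke and 104 kb in air. It covers chr11:67583562-67583861 on the plus strand.

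GSTP1: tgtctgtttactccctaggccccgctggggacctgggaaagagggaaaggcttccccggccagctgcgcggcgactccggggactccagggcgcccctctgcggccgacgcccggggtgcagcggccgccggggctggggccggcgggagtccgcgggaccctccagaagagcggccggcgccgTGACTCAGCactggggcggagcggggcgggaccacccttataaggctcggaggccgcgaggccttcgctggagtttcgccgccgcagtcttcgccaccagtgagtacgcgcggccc

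The N-acetyltransferases of chromosome 8 activate and detoxify aromatic amines. NAT2 had 1 smoke peak across the lower-coordinate end of its span (fold 4.30, −log10 q 1.68) and 1 air peak 5.21 kb outside it (fold 3.15, −log10 q 1.02), 4.99 kb apart. NAT1 had neither within 10 kb, with smoke no nearer than 131 kb and air no nearer than 31.0 kb.

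No smoke peak at a member overlapped an air peak, in 0 of 53 cases. Members with peaks of both libraries therefore carried them at different places. Inside gene spans lay 26 of 32 smoke peaks (81.3%, 64.7 to 91.1) and 9 of 21 air peaks (42.9%, 24.5 to 63.5). Over all protein-coding genes these shares were 87.4% and 88.2%. Spans make up 60.2% of the member windows and 85.0% of the windows of all protein-coding genes, and no test of the difference was made. Without CYP2C, 14 of 19 smoke peaks (73.7%, 51.2 to 88.2) and 7 of 19 air peaks (36.8%, 19.1 to 59.0) were inside.

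The authors' q values describe the strength of the peaks at members. Of the smoke peaks, 13 of 32 had a q of 0.05 or lower (40.6%, 25.5 to 57.7), against 44.4% of the whole smoke list. Of the air peaks, 11 of 21 did (52.4%, 32.4 to 71.7), against 60.4% of the whole air list. The median fold was 3.76 at members and 3.76 in the smoke list, and 3.65 at members and 3.93 in the air list. Median widths were 262 bp in smoke and 229 bp in air, against 225 bp and 277 bp in the whole lists. The same fold of 3.76 recurred in 9 of the 32 smoke peaks and in 21.6% of the smoke list, so ranks among those peaks carry no information. The weakest member peaks had a q of 0.301 in smoke, at UGT1A, SULT1E1 and GSTA4, and of 0.209 in air.

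**Figure D4:**
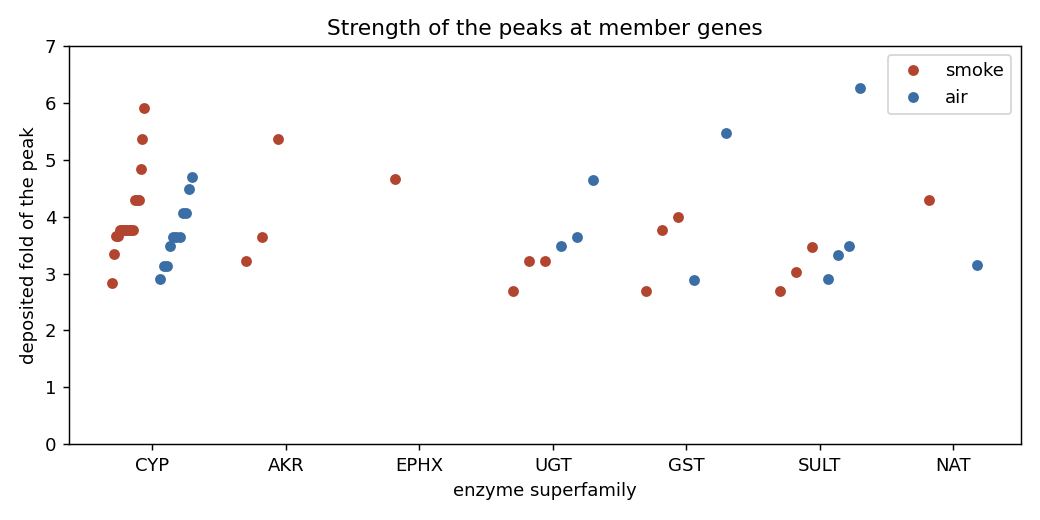
Deposited fold of each of the 53 peaks within 10 kb of a member (vertical axis, starting at 0) by enzyme superfamily, smoke as the left and air as the right points of each pair. Smoke folds run from 2.69 to 5.91 and air folds from 2.88 to 6.25, and AKR and EPHX have smoke points alone.

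Promoter windows from 250 bases before to 50 after each RefSeq start were found for 74 of the 94 members, 84 windows in all. None was overlapped by a peak of either library, where 0.309% of all 34961 windows held a smoke peak and 0.369% an air peak. Members without a window could not be checked in this way. Among them were NAT2, with a smoke peak across an end of its span, and CYP1B1, with a smoke peak 2.51 kb from its span. The AHR core GCGTG was present on either strand in 25 of 84 member windows (29.8%), against 43.0% of windows of all protein-coding genes. It was present in 9 of 32 windows of members with a peak and in 16 of 52 windows of members without one. The antioxidant element TGACNNNGC was present in 16 of 84 (19.0%), against 13.8%, and in 6 of 32 and 10 of 52 windows of the same subsets. A match is a description of the letters and not a binding site.

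Genes that control and supply these enzymes were covered by a list of 43. Peaks of both libraries were found at 5 of them, of smoke alone at 6, of air alone at 11 and of neither at 21. Among receptors and regulators, AHR itself had 1 smoke peak (fold 3.76) and no air peak, and its partner gene ARNT had 1 air peak (fold 4.06) and no smoke peak. ARNT2, a related partner, had 4 air peaks with folds from 2.90 to 4.64. NR1I2, the pregnane X receptor that induces CYP2C and CYP3A genes in liver, had 1 smoke peak (fold 3.71) and 1 air peak (fold 5.21). HNF4A, a liver transcription factor, had 1 smoke peak (fold 3.04). KEAP1, the inhibitor of NRF2, CUL3, which acts with it, and TIPARP, an AHR target, had 1 air peak each (folds 3.13, 3.48 and 2.90). NFE2L2, AHRR, NR1I3, RXRA, PPARA, MAFG and MAFK had none.

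Electron donors and haem supply had peaks at POR in smoke (fold 4.45) and at ALAS1 and CYB5R3 in air (2 peaks each). POR passes electrons to every microsomal P450. Of 8 cofactor genes, GCLM, a subunit of the enzyme that starts glutathione synthesis, had 1 smoke peak (fold 4.30) and 1 air peak (fold 2.84), and UGP2 and UGDH, which make UDP-glucuronate, had 2 and 1 air peaks. NNMT and ALDH2 had 1 air peak each, ALDH1A1 had 1 smoke peak, and the carbonyl reductase gene CBR1 had 2 smoke and 1 air peaks. Among export pumps, ABCB1, which encodes P-glycoprotein, had 3 smoke and 4 air peaks, ABCC4 had 1 and 3, and ABCC2 and ABCC3 had 1 smoke peak each. ABCC1 and ABCG2 had none. By gene, the partner list had smoke peaks at 25.6% and air peaks at 37.2%, beside the 31.3% and 33.1% of all protein-coding genes.

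Marker genes of tissue could not serve as a check of the label, since peaks do not measure expression. Of 14 urothelial markers 4 had a smoke peak (28.6%) and 3 an air peak (21.4%). Of the uroplakin genes UPK1B had 1 smoke peak while UPK1A, UPK2, UPK3A and UPK3B had none. Of 10 hepatocyte markers 1 had a smoke peak (10%) and 2 an air peak (20%), and ALB had none. Over all protein-coding genes the shares were 31.3% and 33.1%. TP63, a gene of 301 kb, held 5 of the 8 smoke and 3 of the 6 air peaks at urothelial markers. Many members belong to families of near-identical copies, among them SULT1A3 and SULT1A4, the CYP2A, CYP2C, CYP4A and UGT2B genes and the GSTM genes. How reads that fit several copies were placed is not given in the sources used here, so a peak or its absence at such a gene is uncertain.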

How the data were processed

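Acetylation of H2A at lysine 130 was profiled by ChIP-seq in 1 smoke and 1 air library of UMUC3 cells, grouped by treatment label. The treatment text of the labels stands on all 3 samples, so the groups rest on the treatment label and the design text. Bowtie2, MACS and MACS2, with hg38 and mm10 as builds, are named per the submitters' processing notes, with no version, setting or role. Both lists carry 1 shared control code in their names, which the labels leave unexplained. Peak numbers have gaps, so a gene with no listed peak may have had a called one. The deposited score is a whole number of about 10 times the −log10 p. The fold (ratio over background), −log10 p and −log10 q of each peak are the authors' own values, and the deposited summit is an offset in bases.

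Genes, spans and promoters came from RefSeq GRCh38.p14, and chromosome Y and sequences outside the primary chromosomes were left out. A peak counted for a gene when at least 1 bp lay within 10 kb of its span, and once per family or cluster. Members at most 500 kb apart formed a cluster. Distances are between nearest edges. Shares have Wilson intervals and densities exact Poisson intervals (scipy 1.17.1, pandas 2.3.3), which cover counting error only. Counting was tested on planted peaks. Members with a peak were named, with smoke-carcinogen genes and partner genes whatever their values. Values of some genes are left out of the text and stay in the totals. The members and lists were chosen with earlier results of these data known. The CYP2C tiles, length classes and the counts without CYP2C were chosen after seeing the data.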

Additional observations from a re-analysis of the deposited data

How the results depend on the processing

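With 1 library per group no library could be left out. No paired analysis was possible because the labels give no replicate numbers and each group has 1 library. Placing peaks by summit left all 5 counts as they were. Leaving out chromosome X could not change them, because no member lies on it. Under both settings the density ratios stayed within their intervals. Against the reported 25, 25 and 10 members with smoke, air and both peaks, the numbers were 52, 55 and 31 within 50 kb, 9, 11 and 1 for peaks with a −log10 q of 1.3 or more, and 3, 2 and 0 at a fold of at least 5. Gene spans alone gave 19 members with smoke peaks, 9 with air peaks and 4 with both. Distinct peaks, reported as 32 in smoke and 21 in air, were 26 and 9 over gene spans, 59 and 48 within 50 kb, 13 and 11 at the −log10 q threshold, and 3 and 2 at the fold threshold. So the excess of smoke over air peaks was 1 or 2 peaks among those that passed a stricter threshold. The ratio of peak density at members to that at all protein-coding genes was 1.05 in smoke (0.718 to 1.48). It was 0.948 at the −log10 q threshold and 1.69 at a fold of at least 5, from 3 peaks. Without CYP2C, where 19 smoke peaks were left, it was 0.678. In air the ratio was 0.609 (0.377 to 0.930), with 0.524 at the −log10 q threshold and 0.597 at the fold threshold. Under all alternatives the air ratio was between 0.418 and 0.679.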

Other observations

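Pseudogenes and other rows of the same families that do not code for protein numbered 42 on the primary chromosomes. Smoke peaks lay within 10 kb of 10 of them, air peaks of 13, and both of 3. Of all protein-coding genes 31.3%, 33.1% and 18.3% had smoke, air and both. The share over all non-coding rows is not given here, and span lengths were not matched. The 42 rows added 8 smoke and 9 air peaks that no protein-coding member had within 10 kb. A pair stood upstream of the UGT1A genes, where the pseudogenes UGT1A11P and UGT1A12P each had 1 smoke peak and no air peak. Inside the locus UGT1A13P had 1 air peak, which members also had, and no smoke peak. In the aldo-keto reductase cluster AKR1C6P and AKR1C7P each had 1 smoke peak and no air peak, the same side as AKR1C2 and AKR1C4. Elsewhere the sides were mixed: UGT2B26P had a smoke peak and UGT2B24P an air peak, GSTA8P had a smoke peak, GSTA10P had the one of GSTA3, and GSTA7P had an air peak. Of the AKR1B pseudogenes, AKR1B10P2, AKR1B1P7 and AKR1B1P8 had an air peak alone, and AKR1B1P6 had a peak of each library. GSTM2P1, GSTM3P2 and GSTM5P1 each had an air peak alone, the opposite side from GSTM2 and GSTM4. The choice of these rows was made with their values known.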
